A study of Drosophila melanogaster with 10 samples.

Results

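The 10 genes Nop60B, Fib, nop5, Nopp140, pit, ppan, Nle, bys, Non1 and Surf6 encode nucleolar proteins that make ribosomes, and they were followed hour by hour in adult Drosophila melanogaster kept without dietary yeast. They were taken by name from the platform annotation: 9 of the 10 had a probe set of their own, Non1 had 2, and nop5 had no probe set named for it alone, so its RNA was not analysed here. The 10 probe sets stand among 12443 that name a single gene, which together cover 10844 genes.

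RNA was prepared from whole flies and hybridised to Affymetrix arrays, 1 array an hour, at hours 1, 2, 3, 5, 6, 7, 9, 10, 11 and 12. All 10 arrays belong to the group labelled NY (no yeast). These animals ate a standard diet until early in the third larval instar, were then moved to the same diet without yeast, and stayed on it through emergence, 4 days of adult life and the course itself. Hours 4 and 8 gave too little RNA for an array, and the flies returned to yeast and the baseline samples of the study were not used here. Strain, sex and the number of flies in a sample are not stated in the labels, and nothing in them describes a second sample at any hour. Each p-value below so sets a fitted change against the scatter of single arrays around the fit, and the number of arrays limits the precision.

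Ribosomes begin in the nucleolus, where RNA polymerase I copies the ribosomal DNA into one long precursor. Small nucleolar ribonucleoproteins (snoRNPs) guide the chemical marking of that precursor, while helicases, GTPases and scaffold proteins fold and cut it and add the ribosomal proteins of the small and the large subunit. The pathway is known to answer to nutrition through insulin, TOR and the transcription factor Myc, and in the adult female fly the nurse cells of the ovary are a large site of ribosome production.

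Values are array intensities, which compare 1 probe set between arrays and do not rank different genes by RNA amount. Array medians lay between 111.1 and 120. The array of hour 3 stood apart, with a mean distance of 0.226 (log2) from the median profile, against 0.073 to 0.135 for the others. Intensities under 57.2, the 20th percentile of the table, were treated as a floor. Tests covered the 8380 probe sets whose mean log2 was at least 6.55, which corresponds to an intensity of 93.8. Of the members, 7 probe sets of 6 genes (Fib, Nopp140, pit, ppan, bys and both for Non1) were tested. The probe sets of Nop60B, Nle and Surf6 were too dim. ppan reached the limit only through its value at hour 3, since its mean log2 was 6.64 with that array and 6.34 without it.

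No member gene passed a test for change over the 12 hours. What the members shared was a modest pattern from hour to hour. At hours 1 and 6, 5 of 6 and 6 of 6 tested genes lay above their own median, beside 58.3% and 57.9% of all tested probe sets. At hours 2, 7 and 10, 1 of 6 did, beside 44.6%, 50.8% and 39.3%. Without ppan the counts were 4 of 5 at hour 1, 5 of 5 at hour 6 and 1 of 5 at hours 2, 7 and 10. Of hours 1, 6 and 10, only hour 6 kept its count under quantile normalization. Apart from that, ppan was about 8.61 times as bright at hour 3 as at the median of the other hours, on a single array.

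The first group in the pathway is the snoRNP proteins. Fib, fibrillarin, is the ribose methyltransferase of the box C/D snoRNPs. Its intensity was 516, 436, 456, 485 and 590 at hours 1, 2, 3, 5 and 6. It was 437, 413, 414, 485 and 434 at hours 7, 9, 10, 11 and 12. Hours 6 and 1 were the highest arrays, hours 9 and 10 the lowest, and the ranges of later and earlier hours overlapped. Fib averaged 437 ± 29.1 over hours 7 to 12 and 497 ± 60.5 over hours 1 to 6 (SD, n = 5 arrays each). The difference, later minus earlier, was -0.18 ± 0.09 (log2, SE; limma, unadjusted p = 0.0658, adjusted p = 0.81). It was the smallest unadjusted p among the 7 probe sets in that comparison.

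Nopp140 is a nucleolar chaperone that binds snoRNPs and, in flies, is needed for normal nucleolar structure. It measured 342, 234, 272, 223 and 320 at hours 1, 2, 3, 5 and 6. It measured 224, 239, 216, 273 and 255 at hours 7, 9, 10, 11 and 12. Hours 1 and 6 stood above the other 8 arrays, and its lowest array was hour 10. The mean was 241 ± 23.1 in the later hours and 278 ± 52.1 in the earlier hours (SD, n = 5 arrays each), a difference of -0.19 ± 0.12 (log2, SE; limma adjusted p = 0.817). With hours 1 and 6 left out, a setting chosen after the values were seen, its fitted linear change turned to 0.04, against -0.22 ± 0.19 (log2, SE) with all arrays. Nop60B, the fly dyskerin and pseudouridine synthase of the box H/ACA snoRNPs, lay under the floor on all 10 arrays, between 30.4 and 55.7, so no order is read from it.

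The next member is a helicase. pit (pitchoune) is a nucleolar DEAD-box helicase that in flies is known as a gene downstream of Myc. Its lowest intensity was 134 at hour 9, its median 152, and its highest 171 at both hours 6 and 1. It was the only tested member above its own median at hour 10, where it measured 155.

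The remaining members act on one subunit. Among the large subunit factors, ppan (peter pan), named for the failure of mutant fly larvae to grow, measured 83.8, 71.7, 646, 84.5 and 90.8 at hours 1, 2, 3, 5 and 6. At hours 7, 9, 10, 11 and 12 it measured 70.3, 117, 75.1, 74.5 and 70.2. One array thus held a value 5.53 times the next highest, which was that of hour 9. Of the 8380 tested probe sets, 264 (3.15%) were at least 2-fold and 28 (0.334%) at least 4-fold brighter at hour 3 than at the median of the other hours, and ppan had the 4th highest ratio. The other 6 tested member probe sets had hour 3 ratios between 0.868 and 1.32. The later hours of ppan averaged 81.4 ± 19.96 and the earlier hours 195 ± 252 (SD, n = 5 arrays each). The difference of -0.64 ± 0.52 (log2, SE; limma adjusted p = 0.817) carries that array, and without hour 3 the gene was too dim to be tested.

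By the RefSeq annotation of assembly Release 6, ppan overlaps the gene Bdbt and lies between Rab11 and slmb. Rab11 had no probe set named for it alone. These neighbours were looked up after the hour 3 value was seen. Bdbt measured 248 at hour 3 against a median of 159 at the other hours, a ratio of 1.56, and slmb had a ratio of 0.85. Neither neighbour had a ratio near the 8.61 of the ppan probe set.

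Non1 is a nucleolar GTPase whose yeast counterpart matures the large subunit. Its probe sets 141995_at and 142696_at followed different courses. The first was lowest at hour 2 with 163, had a median of 176 and was highest at hour 3 with 228. The second was lowest at hour 3 with 1503, had a median of 1722 and was highest at hour 11 with 1918. The hour of the peak in one was thus the hour of the trough in the other. The fitted linear change from hour 1 to hour 12 was -0.12 ± 0.13 for 141995_at and 0.19 ± 0.10 for 142696_at (log2, SE; limma adjusted p = 0.937 for both). Without hours 3 and 9 the first became 0.00085. The RNA of Non1 has no single direction in these data.

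Nle (Notchless), a WD-repeat protein that in yeast joins the large subunit precursor, was too dim to test. It lay between 60.3 at hour 12 and 84.8 at hour 6, with a median of 67.8. Its hour 6 value was 1.19 times the next highest. On the small subunit side, bys (bystin), whose yeast counterpart is needed to process and export the small subunit precursor, varied least of the tested members. Its lowest value was 242 at hour 10, its median 260 and its highest 293 at hour 6, a range of 1.21-fold.

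Surf6, whose yeast counterpart takes part in making both subunits, was also below the brightness limit. It measured 88.7, 72.5, 86.1, 80.9 and 95.1 at hours 1, 2, 3, 5 and 6. It measured 78.9, 73.4, 71.8, 68.3 and 71.1 at hours 7, 9, 10, 11 and 12. The later hours sat in the lower part of the range but overlapped the earlier ones. In a fit with no brightness filter its later minus earlier difference was -0.22 ± 0.07 (log2, SE; limma, unadjusted p = 0.0146, adjusted p = 0.755).

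**Figure D1:**
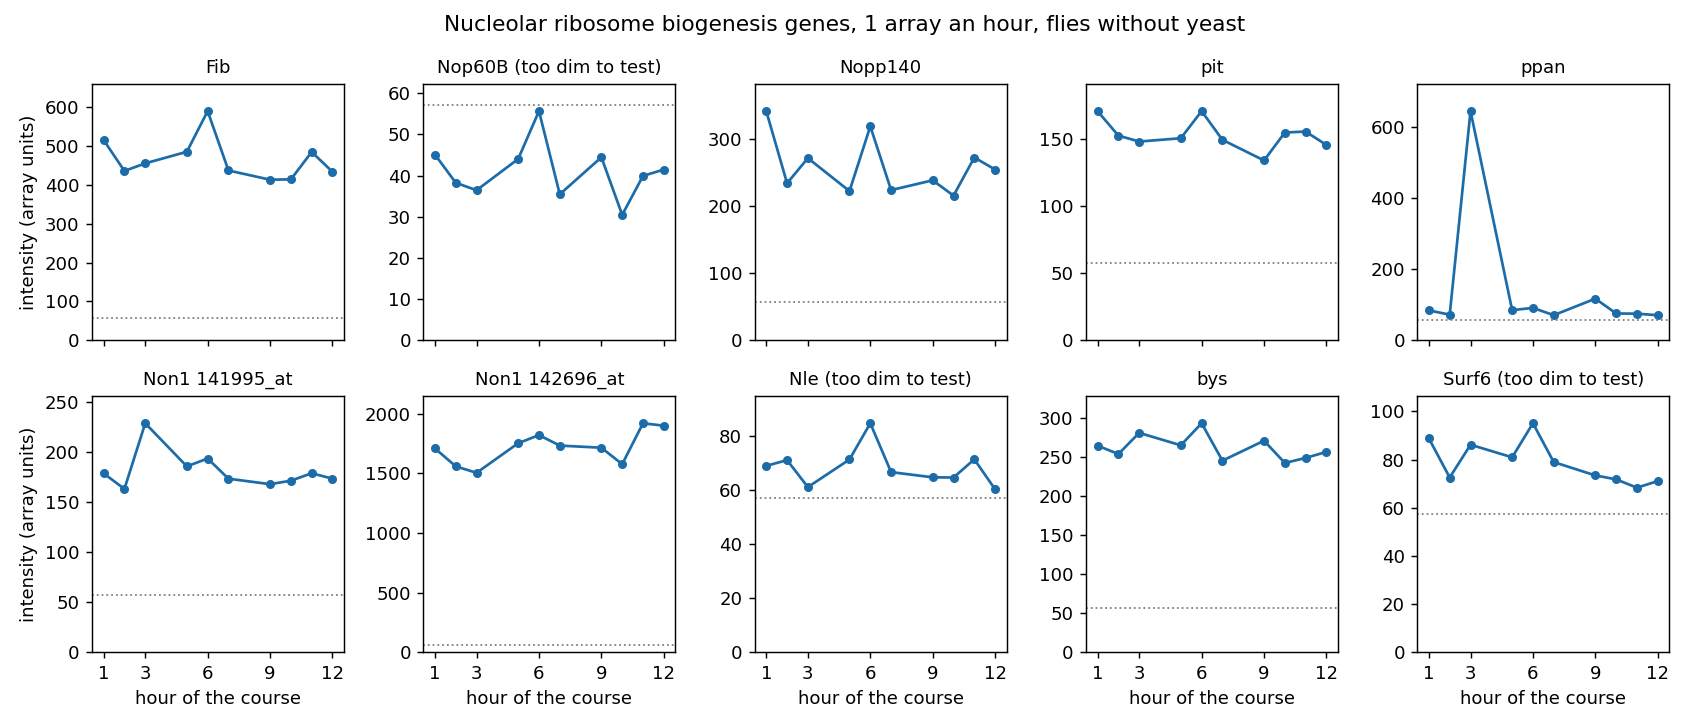
Intensity (array units, linear axis starting at 0) of each member probe set against the hour of the course, 1 point for each array, with the floor of 57.2 as a dotted line. Fib, bys, Nle and Surf6 peaked at hour 6, and pit was about equally high at hours 1 and 6. ppan stood at 646 on the array of hour 3, and Nop60B stayed under the floor throughout.

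Whether the members changed steadily was asked with a straight line on the hour. Of the 7 tested probe sets, 0 passed the adjusted threshold of 0.05 (limma with Benjamini-Hochberg adjustment), beside 0.0477% of all tested probe sets. At an unadjusted p under 0.05 the count was also 0 of 7, beside 3.71% of all. The 7 fitted changes ran between -0.92 for ppan and 0.19 for Non1 142696_at (log2), all with an adjusted p of 0.937. Without ppan, whose hour 3 value both let it into the tests and sets its slope, 4 of 5 member genes (by the brightest probe set of each) had a slope below 0, with a median change of -0.12. Among all tested probe sets 63.4% had a slope below 0, with a median change of -0.04. Since most probe sets leaned the same way, the members' count is given as a description.

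The later hours, 7 to 12, were set against the earlier hours, 1 to 6. Of the 7 member probe sets, 0 passed, beside 0.0119% of all tested, and 0 had an unadjusted p under 0.05, beside 6.25% of all. Later and earlier values overlapped in 7 of the 7 tested member probe sets, while in 1.49% of all tested probe sets they did not. Differences ran between -0.64 for ppan and 0.08 for Non1 142696_at (log2), with adjusted p-values between 0.81 and 0.817. Again without ppan, later was below earlier in 4 of 5 member genes, with a median difference of -0.10, and in 63.4% of all tested probe sets, with a median difference of -0.03. In whole-animal RNA, fewer cells of a type and less RNA per cell cannot be told apart.

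A smooth curve, which takes in a fall followed by a rise, gave 0 of 7 member calls beside 0% of all tested probe sets. At an unadjusted p under 0.05 it gave 0 of 7 members beside 1.62% of all. The unadjusted p-values of the members lay between 0.356 and 0.727. A p-value that misses the threshold does not show that the levels were constant, and the standard errors of the linear changes ran between 0.10 for bys and 0.78 for ppan (log2).

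**Figure D2:**
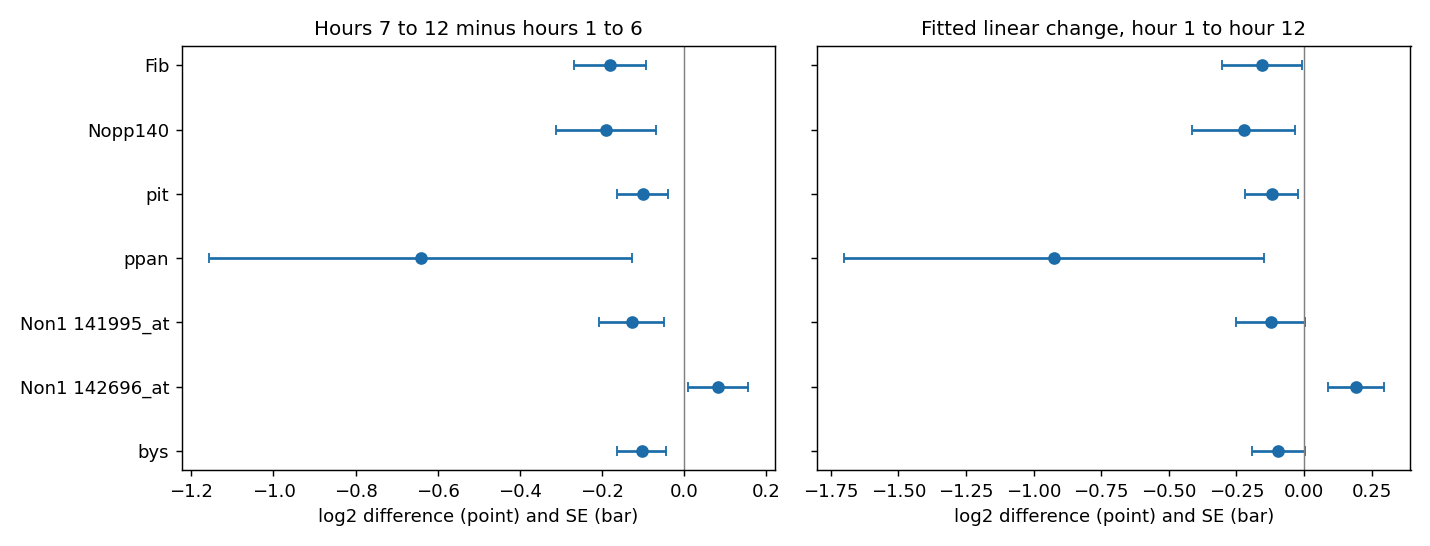
Fitted log2 differences (points) with their standard errors (bars) for the 7 tested member probe sets, hours 7 to 12 minus hours 1 to 6 on the left and the straight-line change over the course on the right. All lie below 0 except Non1 142696_at, none passed the threshold, and the bars of ppan are the widest.

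The pattern across single hours was described with no test, because each hour had 1 array and the hours were picked out after their values were seen. At hour 6, 6 of 6 tested member genes lay above their own median over the 10 arrays, beside 57.9% of all tested probe sets. Counted by probe set, 7 of 7 tested ones were above it, and so were 9 of the 9 that lay above the floor. At hour 1 the count was 5 of 6 genes beside 58.3% of all, and 5 of 6 genes were above their median at both hours, beside 37.5% of all. The exception at hour 1 was Non1, by its brighter probe set.

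Hour 10 was the reverse. There, 1 of 6 member genes (pit) lay above its own median, beside 39.3% of all tested probe sets. Hour 2 also had 1 of 6, beside 44.6%, and hour 7 had 1 of 6, beside 50.8%. At hours 3, 5 and 11 the count was 4 of 6 each, beside 59.3%, 46% and 52%, and at hours 9 and 12 it was 2 of 6 each, beside 44% and 47.8%. These counts hold ppan, which entered the tests only through hour 3. Without it they were 4, 1, 3, 3 and 5 of 5 at hours 1, 2, 3, 5 and 6. At hours 7, 9, 10, 11 and 12 they were 1, 1, 1, 4 and 2 of 5. Under quantile normalization the counts were 4 of 6 at hour 1 (51.1% of all), 1 of 6 at hour 3 (37.6% of all), 6 of 6 at hour 6 (46.7% of all) and 2 of 6 at hour 10 (54.8% of all). The count of hour 6 was thus the same, and those of hours 1, 3 and 10 were not.

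In size the swings were small. The mean level of the 6 genes, each as log2 minus its own mean, stood at 0.08 (hour 1), 0.16 (hour 6) and -0.17 (hour 10). Over all tested probe sets it was 0.02, 0.03 and -0.07 at those hours. Without ppan the members' mean was 0.15, 0.21 and -0.13, and under quantile normalization with ppan it was 0.07, 0.11 and -0.09. Under quantile normalization without ppan it was 0.13, 0.16 and -0.04. In that setting hour 3 was the lowest, at -0.16, with 0 of 5 genes above their own median. At hour 6 the ratio to the gene's own median was 1.32 for Fib, 1.29 for Nopp140, 1.13 for both pit and bys, and 1.06 for Non1 142696_at. At hour 3 the mean of 0.44 came from ppan, since it was -0.015 without that gene. Hour 6 held the highest value of 3 of the 6 genes (Fib, pit and bys), beside 18.8% of all tested probe sets, and of 5 of the 9 probe sets above the floor. Both counts include pit, whose hour 6 value was only 1.0004 times that of hour 1.

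**Figure D3:**
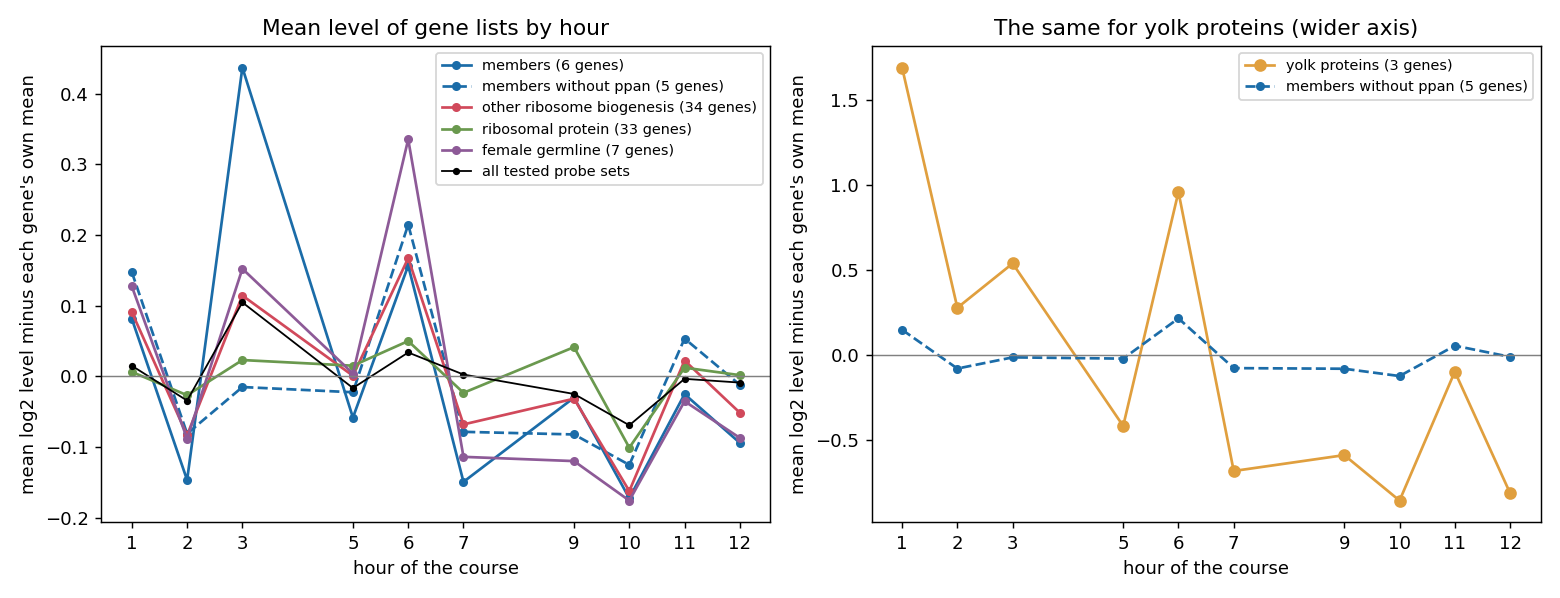
Mean log2 level of gene lists minus each gene's own mean, against the hour of the course, with yolk protein genes on a wider axis at the right. Members without ppan, other ribosome biogenesis genes and female germline genes all lay above 0 at hours 1 and 6 and were lowest at hour 10. The single peak of the full member line at hour 3 is that of ppan. Under quantile normalization, not drawn, members without ppan were lowest at hour 3 (-0.16). The eggshell, muscle and neuron lists are not drawn.

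The other ribosome biogenesis genes give the members their setting. Of 53 listed, 47 were on the array, 34 were tested and 13 were too dim. Of the 34, 0 passed any of the 3 tests, beside the same shares of all probe sets as above. At an unadjusted p under 0.05 there were 3 by the straight line, 6 by later against earlier hours and 0 by the smooth curve. The shares of all tested probe sets were 3.71%, 6.25% and 1.62%. Slopes were below 0 in 29 of 34, beside 63.4% of all, with a median change of -0.10 (log2), beside -0.04. At hour 6, 30 of 34 lay above their own median, at hour 1 29 of 34, at both hours 26 of 34, and at hour 10 3 of 34. The shares of all were 57.9%, 58.3%, 37.5% and 39.3%. The hour 10 count was 12 of 34 under quantile normalization, beside 54.8% of all. Hour 6 held the highest value of 17 of the 34, beside 18.8% of all tested probe sets. Hour 10 held the lowest of 13, beside 22.7%. At hour 2 the count was 14 of 34, near the 44.6% of all probe sets, where the members had 1 of 6. Whether the members and these genes differ in their hours was not tested.

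By role, the nucleolar structure genes had the widest swing. The 4 of them (mod, Nlp, Nph and Noa36) all had their highest value at hour 6, with a mean level of 0.38 there and -0.31 at hour 10 (log2 minus own mean). mod (modulo), a nucleolar RNA-binding protein known in flies as a Myc target, measured 451 at hour 6 and 296 at hour 10, with a median of 357. Nph, a nucleophosmin, measured 608 at hour 6 and 370 at hour 10.

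Among the other snoRNP genes, Nop56, a core protein of the box C/D particle beside fibrillarin, had the smallest trend p of its list. It measured 550 at hour 1 and 385 at hour 12, with a fitted change of -0.33 ± 0.12 (log2, SE; limma, unadjusted p = 0.0202, adjusted p = 0.937). Nop10, a small protein of the box H/ACA particle, was highest at hour 6 with 485 and lowest at hour 10 with 348, with a fitted change of -0.25 ± 0.12. The polymerase I factors leaned different ways, with fitted changes of -0.27 ± 0.14 for udd and 0.10 ± 0.09 for Tif-IA.

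Of the subunit assembly genes, mbm, a fly nucleolar protein of small subunit production, had a fitted change of -0.47 ± 0.18 (log2, SE; limma, unadjusted p = 0.0211, adjusted p = 0.937). Its highest value was 389 at hour 3 and its median 236. CG5033, the fly counterpart of the large subunit factor Bop1, was also highest at hour 3, with 439 and a median of 218. CG6724 had a fitted change of -0.18 ± 0.07 and Rtc1 one of -0.17 ± 0.10. Of the 34 genes, 9 had their highest value at hour 3, beside 30.8% of all tested probe sets, so ppan was not alone in peaking on that array.

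The helicases Dbp73D and Ddx56 had fitted changes of -0.08 ± 0.09 and 0.06 ± 0.16, and the exosome subunits Dis3 and Ski6 of -0.07 ± 0.10 and -0.10 ± 0.19 (log2, SE; limma adjusted p between 0.937 and 0.97). Myc itself had no probe set named for it. Its partner Max had a fitted change of 0.03 ± 0.15 and its antagonist Mnt one of -0.07 ± 0.12.

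**Figure D4:**
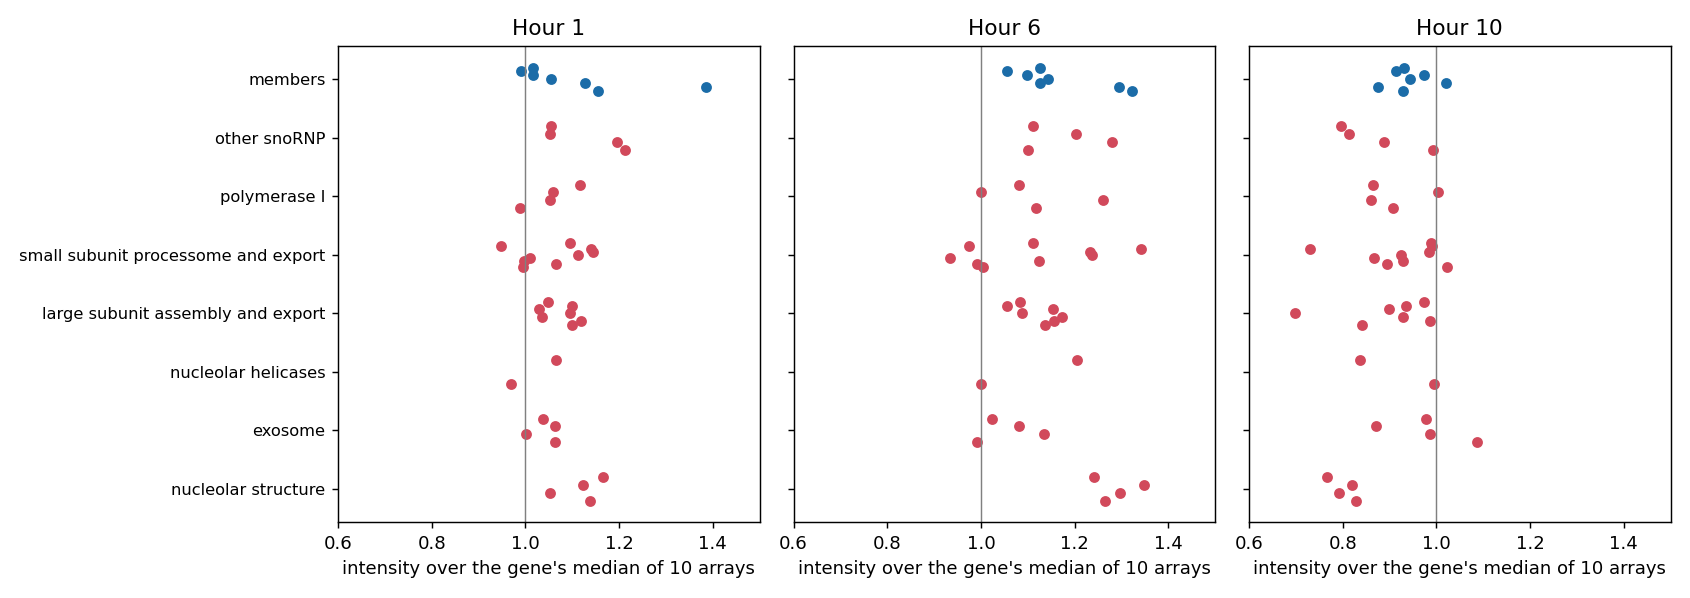
Intensity over the gene's own median of 10 arrays (linear axis) at hours 1, 6 and 10, 1 point for each tested member probe set and each other tested ribosome biogenesis gene, by role. At hour 6 all 7 member points lie right of 1, at hour 10 6 of 7 lie left of it, and the 4 nucleolar structure genes lie farthest left as a group at hour 10.

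Ribosomal proteins are the cargo of this pathway, and the genes named for them varied less in sum. These 37 genes were taken by symbol alone. They include RpL7-like, RpL24-like and RpLP0-like, which may not encode parts of the ribosome. Of 33 tested, 23 were above their own median at hour 6, 14 at hour 1 and 8 at both, beside 57.9%, 58.3% and 37.5% of all tested probe sets. The summed intensity of the list varied 1.07-fold over the course, against 1.23-fold for the members with or without ppan. Such sums weigh the brightest genes most, and Non1 142696_at gave 1707 of the members' 3085 at hour 1. At hour 10, 2 of 33 were above their own median, beside 39.3% of all. RpL3 had a fitted change of 0.09 ± 0.05 and RpL39 one of -0.11 ± 0.07 (log2, SE; limma adjusted p = 0.937 for both).

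Ovarian genes were read beside the members, from a female germline, a yolk and an eggshell list. The female germline list had 11 of its 12 genes on the array and 7 bright enough to test. Of these 7, all were above their own median at hour 6, 6 at hour 1 and 1 at hour 10, beside 57.9%, 58.3% and 39.3% of all tested probe sets. Their summed intensity lay between 2869 and 3264 at hours 7 to 12 and between 3400 and 4563 at hours 1 to 6. A large part of each sum was dhd, with 1409 at hour 7, so the sums say little about the other genes. Single probe sets whose later and earlier values did not overlap made up 1.49% of all tested. dhd, a thioredoxin made in the germline, measured 2563 at hour 6 and 1721 at hour 10, and exu, a factor that localises maternal RNA, measured 180 at hour 6 and 110 at hour 10.

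The yolk protein genes, made in the fat body and ovarian follicle, swung most. All 3 were tested, all 3 were above their median at hours 1 and 6, and their mean level (log2 minus own mean) stood at 1.69 for hour 1, 0.96 for hour 6 and -0.86 for hour 10. Their summed intensity lay between 615 and 1071 at hours 7 to 12 and between 842 and 3539 at hours 1 to 6. For hours 1, 6 and 10, Yp2 measured 1135, 509 and 179, and Yp3 measured 1072, 943 and 271. The eggshell list went another way at hours 6 and 10. It had 4, 3 and 6 of 8 tested genes above their own median at hours 1, 6 and 10. The shares of all tested probe sets were 58.3%, 57.9% and 39.3%. Its mean level was 0.22, -0.05 and 0.02 at those hours. The eggshell genes Vm26Aa and Vm34Ca were highest at hour 1, with 1002 and 688. Another 4 genes of the female germline list were too dim to test. The part of ovarian tissue in the members' levels was not tested.

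The other marker lists were read too. Muscle and neuron genes shared the direction of the members' mean at hours 1, 6 and 10. Their mean levels (log2 minus own mean) there were 0.20, 0.14 and -0.20 for muscle, and 0.20, 0.10 and -0.02 for neuron. At hours 1, 6 and 10, beside the same shares of all probe sets, the tested muscle genes above their own median numbered 4, 3 and 0 of 4, and the tested neuron genes 5, 4 and 2 of 5. Both of these lists had their lowest mean level at hour 9, at -0.34 for muscle and -0.39 for neuron (log2 minus own mean). The mean levels of the testis list at hours 1, 6 and 10 were -0.11, -0.14 and -0.12. That list had 4, 2 and 4 of 9 genes above their own median at those hours. At hour 7 it had 8 of 9 above their median, beside 50.8% of all. Its summed intensity was 4785 at that hour and between 2336 and 2503 at the others. Of its members named by trend p, sa, a meiotic arrest gene, had a fitted change of -0.24 ± 0.20 and aly one of 0.05 ± 0.08. The neuron genes Rdl and para had changes of -0.26 ± 0.17 and -0.31 ± 0.25, and the muscle genes Mlc2 and Tm2 of -0.15 ± 0.10 and -0.08 ± 0.17 (log2, SE).

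RNA quality measures were read from the control probe sets. The ratio of the actin 3′ to 5′ probe sets lay between 1.80 and 2.56, highest at hour 6 and next at hour 3. The GAPDH ratio lay between 2.88 and 4.77, highest at hour 10. The control for the middle of 18S ribosomal RNA measured 1248 at hour 6 and between 90.4 and 501 at the other hours. Their part in the members' pattern was not tested beyond a fit with the actin ratio as a covariate, in which 0 of 7 members passed.

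The 5 genes whose courses were most like the mean standardised course of the members were CG3224, CG12107, CG4991, CG11674 and jigr1, with Pearson r between 0.95 and 0.965 over the 10 arrays. All 5 had their highest value at hour 6. CG3224, the closest, measured 215, 227 and 159 at hours 1, 6 and 10. Of the other ribosome biogenesis genes Nph was closest, with r = 0.926, followed by RIOK2 with 0.899 and Nlp with 0.893. Each of these correlations shares the same arrays, normalization and single hour 6 array, and they are given as a description of the courses.

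Among the members themselves Fib (r = 0.925) and Nopp140 (r = 0.905) followed the mean course most closely, which holds their own values. bys had r = 0.759, pit 0.674, Non1 141995_at 0.57, Non1 142696_at 0.305 and ppan 0.246. The courses of ppan and of the brighter Non1 probe set were least like the mean.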

How the data were processed

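Total RNA of whole flies was extracted with Trizol and hybridised to Affymetrix arrays at a core facility, per the labels' protocols. The values the authors deposited are linear-scale intensities, which the authors normalized between arrays with dChip through probes of stable rank, per the labels; its version is not given in the sources used here. Such scaling removes any change shared by most transcripts. Probe sets were named from the platform annotation, with symbols updated through the Release 6 gene table; 327 probe sets name several genes and 1196 none, and neither were used. Coordinates are left out because no build is named in the files.

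Intensities were floored at 57.2, taken to log2 and filtered at the 40th percentile of mean log2. limma 3.58.1 (lmFit, eBayes with an intensity trend) in R 4.3.3 fitted the hour, hours 7 to 12 against 1 to 6, and a natural spline with 3 degrees of freedom, two-sided, with Benjamini-Hochberg adjustment over all 8380 probe sets. The linear change is the slope over 11 hours. The fits were tested on simulated data. Each gene of a list was represented by its brightest probe set. Beside the members, the rule named any gene of another list that passed a fit and otherwise the 2 with the smallest trend p, and the 5 closest courses. Bdbt, slmb, Nlp, Noa36 and RIOK2 were named after their values were seen. The members and lists were chosen with earlier results of these data known. Alternatives were quantile normalization, median centring, other floors and filters, an actin covariate, other divisions and curves, the mean over a gene's probe sets, and leaving out arrays. Tables and figures used Python 3.11.15, pandas 2.3.3 and matplotlib 3.10.9.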

Additional observations from a re-analysis of the deposited data

Results flagged for a closer look

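The 10 member probe sets were each screened at their highest and their lowest array. In 3 of them 1 array stood apart from the other 9. On the log2 scale its gap to the nearest value exceeded, as a share of the whole range, Dixon's 95% limit for 10 samples. ppan measured 646 at hour 3, with a gap of 0.77 of the range. Nle, too dim to test, measured 84.8 at hour 6, with a gap of 0.503. Non1 141995_at measured 228 at hour 3, with a gap of 0.495. By its definition chance passes this limit in about 1 of 20 groups. The share of all tested probe sets that pass it on these arrays is not given here, so the 3 are a description. Hour 3 is also the array that lies farthest from the median profile over all probe sets. It held the highest value of 30.8% of all tested probe sets.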

How the results depend on the processing

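The count of member probe sets called stayed at 0 in 21 alternatives of the straight line, 23 of later against earlier hours and 22 of the smooth curve, with lowest adjusted p-values of 0.615, 0.556 and 0.717. The members' median linear change, ppan included where it was tested, stayed below 0, between -0.19 and -0.04 (log2), and the median later minus earlier difference between -0.18 and -0.04. For single members the sign of the linear change turned in 3 fits: Non1 141995_at to 0.00085 without hours 3 and 9 and to 0.0017 without hours 3, 7 and 9, and Nopp140 to 0.039 without hours 1 and 6. Without ppan the medians were -0.12 and -0.10, and the mean level of the members at hour 3 was -0.015. Leaving out hours 3, 7 and 9, hours 1 and 6, or ppan, and recomputing the levels by hour, were chosen after seeing the data. ppan was not tested without hour 3 and so has fewer alternatives. Under quantile normalization 27 of 34 other ribosome biogenesis genes were above their own median at hour 6, 26 at hour 1 and 12 at hour 10. No paired analysis was possible because all arrays belong to 1 group with 1 array an hour. Single arrays limit every hour, and dim probe sets (Nop60B, Nle, Surf6, and ppan outside hour 3) lie near background.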
